A study of Mus musculus with 2 samples.

Results

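The insulin-like growth factor (IGF) axis was described in mouse spleen through 9 genes: the binding protein genes Igfbp2, Igfbp3, Igfbp4, Igfbp5, Igfbp6 and Igfbp7, the ligand gene Igf1, and the receptor genes Igf1r and Igf2r. They were taken by symbol, matched from unversioned Ensembl identifiers, and all 9 were found among the 43346 genes of both gene tables. The set was chosen by levels measured in these libraries (Igfbp7 stands among the most abundant nuclear genes), so levels are given as a description and carry no test. The data are RNA-seq of spleen from 8-week-old adult C57BL/6J mice, made from stranded, polyadenylated, rRNA-depleted RNA longer than 200 nucleotides with paired 76-base reads. There is a single group of 2 libraries, numbered biological replicates 1 and 2 and called library 1 and library 2 here, with no treatment and no genetic change. The animals were littermates of mixed sex, both libraries carry the same donor entry, and the labels do not say whether a library is 1 animal or a pool. The spread between libraries may thus be partly technical, and no comparison of conditions exists.

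IGF1 and IGF2 are secreted peptides that signal through the tyrosine kinase receptor encoded by Igf1r. The receptor encoded by Igf2r takes up IGF2 for degradation and sorts lysosomal enzymes. The classical binding proteins hold the peptides outside the cell with high affinity, prolong their life in blood and limit their access to the receptor. The product of Igfbp7 shares their amino-terminal region, binds IGFs with low affinity and is deposited in the walls of blood vessels. Most circulating IGF1 comes from the liver under growth hormone, and other tissues and cells, macrophages among them, also make it.

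A 15-base pattern, GGNTGNGGNTGNTGN, spells a run of 5 codons in the cysteine-rich amino-terminal region of the classical binding proteins. It was searched in reading frame on the coding strand of the GENCODE M21 transcripts, and 28 of 21850 genes with a coding sequence held it (0.128%). Igfbp2, Igfbp3, Igfbp4 and Igfbp5 each held it 1 time. Igfbp7 held it nowhere, and its nearest window matched 4 of the 5 codons. The nearest windows of Igfbp6, Igf1r and Igf2r matched 3 codons and those of Igf1 matched 2. The windows are shown because they set the most abundant member beside the 4 that hold the pattern. Each is 75 bases of the coding strand, 5′ to 3′, on GRCm38, with the codons that match in capitals.
Igfbp2 (chr1:72824748-72824822, plus strand): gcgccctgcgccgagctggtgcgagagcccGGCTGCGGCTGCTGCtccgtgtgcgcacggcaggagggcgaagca
Igfbp3 (chr11:7213545-7213619, minus strand): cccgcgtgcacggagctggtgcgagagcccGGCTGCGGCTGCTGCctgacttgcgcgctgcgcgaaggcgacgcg
Igfbp4 (chr11:99041620-99041694, plus strand): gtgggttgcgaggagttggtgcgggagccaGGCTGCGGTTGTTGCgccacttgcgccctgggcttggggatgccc
Igfbp5 (chr1:72873945-72874019, minus strand): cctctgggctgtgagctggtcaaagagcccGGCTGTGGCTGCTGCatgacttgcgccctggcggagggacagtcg
Igfbp7 (chr5:77407805-77407879, minus strand): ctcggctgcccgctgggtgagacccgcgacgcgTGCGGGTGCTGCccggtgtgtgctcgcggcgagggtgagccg
In Igfbp7 the first codon of the pattern differs and the other 4 are kept. Igfbp2 and Igfbp5 lie next to each other on chromosome 1 on opposite strands, Igfbp2 from 72824503 to 72852474 and Igfbp5 from 72857932 to 72874884. Igfbp1, not a member, lies beside Igfbp3 on chromosome 11 and also holds the pattern.

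Libraries 1 and 2 held 49686344 and 51393345 expected counts in genes. Markers of spleen cells were present in both: all 4 B cell genes, all 4 T cell genes, all 9 red pulp macrophage genes and all 5 erythroid genes reached 1 TPM, a level corrected for transcript length and set to the same sum in each library, in both. So did all 7 genes of pancreatic acinar cells, whose summed level was 79977 TPM in library 1 and 64132 TPM in library 2. Markers of liver, a tissue rich in Igf1 and Igfbp1, summed to 13.3 and 2.84 TPM, and 0 of those 5 genes reached 1 TPM in both libraries. Erythroid genes summed to 61965 and 102147 TPM, so they took a larger part of the total in library 2. In a whole organ, fewer cells of a type and less RNA per cell cannot be told apart.

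Igfbp7 (ENSMUSG00000036256, chromosome 5, 77349240 to 77408041, minus strand) was by far the most abundant member. Its deposited level was 6043 TPM in library 1 against 2516 in library 2 (4279 ± 2494 TPM, SD, n = 2). That was rank 15 and rank 21 in the 2 libraries among 21461 nuclear protein-coding genes. Igfbp7 made up 92.8% and 87.5% of the summed TPM of Igfbp1 to Igfbp7 (90.1% ± 3.74, SD, n = 2). Of every transcript counted in TPM, 0.604% was Igfbp7 in library 1 and 0.252% in the other. Its level was 12.4 times that of Plvap, a gene of fenestrated endothelium, in library 1 and 6.66 times in library 2. Plvap was itself lower in library 2, whereas 6 of 8 endothelial genes were higher, as given below.

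Igfbp4 (ENSMUSG00000017493, chromosome 11, 99041244 to 99054392, plus strand) came next, with 287 and 238 TPM (262 ± 35.1 TPM, SD, n = 2). Its product is a soluble inhibitor of IGF action that the protease pappalysin cleaves. Igfbp3 (ENSMUSG00000020427, chromosome 11, 7206086 to 7213923, minus strand), the main carrier of IGFs in serum, had 135 and 97.8 TPM (116 ± 26.0 TPM, SD, n = 2). With Igfbp7 set aside, Igfbp4 held 61.0% and 66.0% of the TPM of Igfbp1 to Igfbp6, and Igfbp3 held 28.6% and 27.2%. The Igfbp4 level was 2.13 and 2.43 times that of Igfbp3, so the order of the pair was the same in both libraries.

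The other 3 binding protein genes were low and close to each other. Igfbp6 (ENSMUSG00000023046, chromosome 15, 102144362 to 102149511, plus strand), whose product prefers IGF2, had 18.9 TPM in library 1 and 9.78 TPM in library 2. Igfbp2 (ENSMUSG00000039323) had 20.5 and 6.71 TPM. Igfbp5 (ENSMUSG00000026185), whose product binds extracellular matrix and can join the serum complex, had 9.62 and 7.88 TPM. Over the 2 libraries the range of Igfbp2 overlapped those of Igfbp6 and Igfbp5. Igfbp2 was the highest of the 3 in library 1 and the lowest in library 2, whereas Igfbp6 exceeded Igfbp5 in both.

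Igf1 (ENSMUSG00000020053, chromosome 10, 87858265 to 87937042, plus strand) had 49.0 and 50.4 TPM (49.7 ± 1.03 TPM, SD, n = 2), the smallest relative spread of any member on the TPM scale. This level depends on the transcripts that carry it, as described below for its short form. The ligand gene Igf2 had 14.95 and 12.53 TPM, and Igf1 exceeded it 3.28-fold and 4.02-fold in deposited TPM. Spread over its longest transcript, Igf1 had 3.52 and 4.31 TPM, below these Igf2 values. Igf2 was not computed on that scale, so the order of the ligand genes is given for the deposited levels only.

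The receptor genes were the lowest members. Igf2r (ENSMUSG00000023830, chromosome 17, 12682406 to 12769664, minus strand) had 8.77 and 6.51 TPM (7.64 ± 1.60 TPM, SD, n = 2). Igf1r (ENSMUSG00000005533, chromosome 7, 67952827 to 68233668, plus strand) had 2.89 and 2.12 TPM (2.51 ± 0.54 TPM, SD, n = 2). Their ratio hardly moved: Igf2r stood at 3.03 times Igf1r in library 1 and 3.07 times in library 2. In TPM the insulin receptor gene Insr was 2.95 and 2.97 times Igf1r. Their counts did not move together: Insr had 1628 and 1717 counts, and Igf1r had 596 and 481. Down the order of mean level, from Igfbp7 through Igfbp4, Igfbp3 and Igf1, neighbours had ranges that did not overlap, and so did Igf2r and Igf1r. The ranges of Igfbp6 and Igfbp2, of Igfbp2 and Igfbp5, and of Igfbp5 and Igf2r overlapped.

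**Figure D1:**
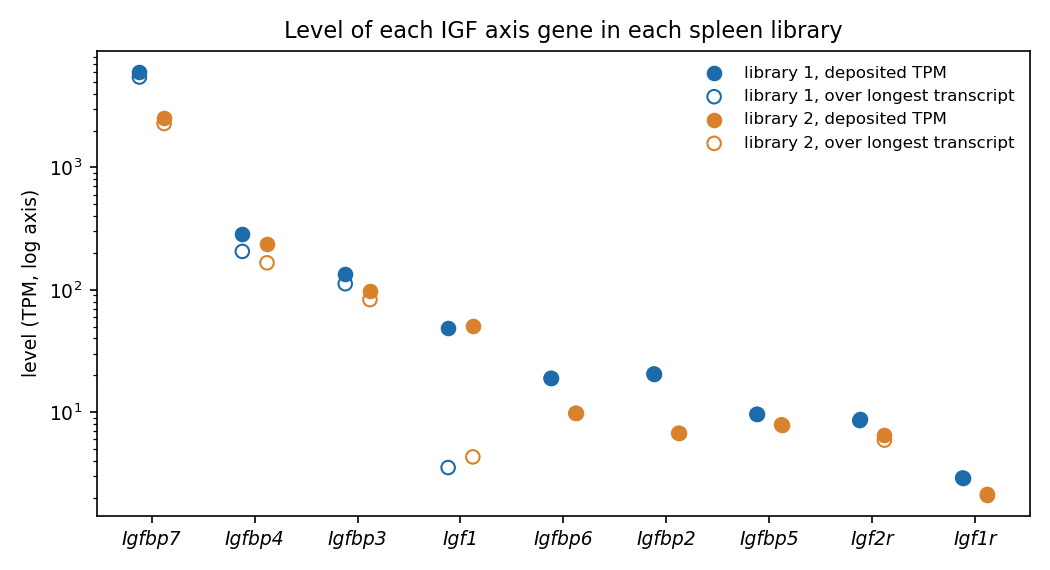
Level of each of the 9 genes (TPM, log axis) in library 1 (blue) and library 2 (orange), ordered by mean. Filled points are the deposited values and open points the expected counts spread over the gene's longest transcript; open points lie under the filled ones where both are equal. Igfbp7 lies above all other genes, and Igf1 is the gene whose level depends most on the length used, 49.0 against 3.52 TPM in library 1.

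The transcript tables showed which forms carried these levels. Igfbp7-201 held 99.8% of the TPM of Igfbp7 in both libraries. Igfbp2-201, Igfbp6-201 and Igf1r-201 held 100% of their genes in both, and Igfbp5-201 held 99.2% and 100%. For these 5 genes the level was in practice that of 1 transcript. Igf1r-201 has 4489 nucleotides in the deposited tables and 11409 in GENCODE M21, and its TPM rests on the shorter model. Igf2r-201 held 97.1% and 90.1% of Igf2r by TPM, and 83.5% on average by the authors' posterior mean estimates.

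Igfbp3 was divided between Igfbp3-201 (2421 nucleotides), at 48.2% and 53.2% of gene TPM, and Igfbp3-202 (1709 nucleotides), at 51.8% and 46.9%. The leading form by TPM was thus Igfbp3-202 in library 1 and Igfbp3-201 in library 2. By expected counts Igfbp3-201 led in both, with 57.8% and 62.5%. Igfbp4-201, the full coding form of 3831 nucleotides, held 66.5% and 64.3% of Igfbp4 TPM. Igfbp4-203, annotated as a processed transcript without a coding sequence and 785 nucleotides long, held 33.0% and 34.9% of TPM but 7.28% and 8.06% of the counts. A level of Igfbp4 taken from counts over its longest transcript was 206 and 166 TPM, lower than deposited by 1.39 and 1.43 times, and Igfbp4 stayed second among the members.

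For Igf1 the choice of transcript mattered most. Igf1-208, a coding form of 510 nucleotides whose 3′ end is annotated as not found, held 82.0% of Igf1 TPM in library 1 and 76.2% in library 2. By expected counts it held 49.5% and 40.7%. Its effective length was 297 and 313 nucleotides, so each count weighed more in TPM than a count of the 7052-nucleotide Igf1-202, which held 14.2% and 20.8% of counts and 1.02% and 1.77% of TPM. Igf1-205, the only other form at 10% or more of TPM in a library, held 9.69% and 13.5%. Over the longest transcript the same counts gave 3.52 and 4.31 TPM, so the deposited level was 13.9 and 11.7 times higher. On that scale Igf1 would fall below Igfbp5 and Igf2r and stay above Igf1r.

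Igf1 transcripts differ at both ends of the coding sequence, and the stretches that tell them apart are shown because the shares above turn on them. Igf1 transcripts start their coding sequence in either of a pair of exons, which give different signal peptides. Near the 3′ end, an exon of 52 bases, when included, changes the tail of the precursor (the Eb form, also called mechano growth factor, against Ea). All 3 stretches lie on the plus strand of GRCm38.
First coding stretch, upstream exon (chr10:87859350-87859412): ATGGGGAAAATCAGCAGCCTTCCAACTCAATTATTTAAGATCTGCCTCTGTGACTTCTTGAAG
First coding stretch, downstream exon (chr10:87861371-87861385): ATGACCGCACCTGCA
Alternative exon (chr10:87915298-87915349): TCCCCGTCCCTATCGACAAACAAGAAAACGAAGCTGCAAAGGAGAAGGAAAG
Transcripts starting in the downstream exon held 94.3% and 93.2% of Igf1 TPM and 72.0% and 66.9% of counts. Those starting in the upstream exon held 5.70% and 6.78% of TPM and 28.0% and 33.1% of counts. Transcripts with these 52 bases, which include Igf1-201, a form that reads on past them, held 89.1% and 83.9% of TPM and 73.7% and 63.8% of counts, and Igf1-208, whose model stops at the last of those bases, made up most of that TPM. No reads over single junctions were examined, so these shares are the quantifier's assignments and not direct counts of the exon.

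**Figure D2:**
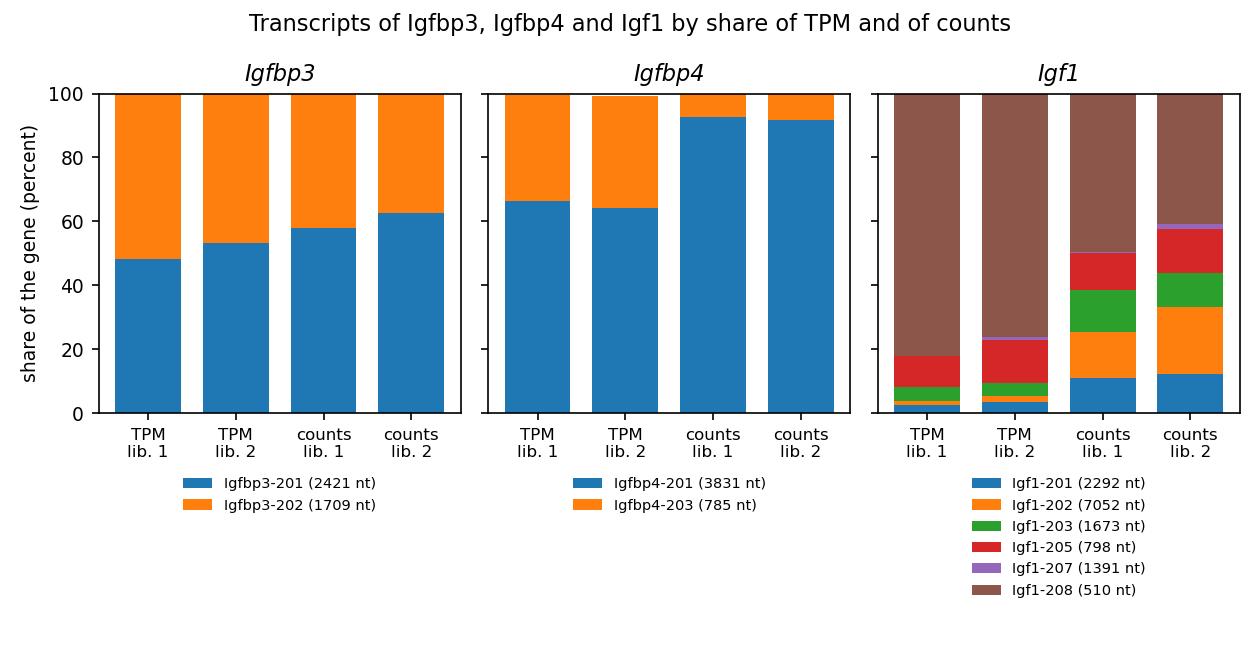
Share of each gene (percent) assigned to its transcripts in Igfbp3, Igfbp4 and Igf1, by TPM and by expected counts, in each library; transcripts under 0.5% are not drawn. The short forms Igfbp4-203 and Igf1-208 hold larger shares of TPM (33.0% and 82.0% in library 1) than of counts (7.28% and 49.5%).

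The libraries were then compared gene by gene. Rounded counts of the 17547 genes with 10 or more were set against library sizes scaled by TMM factors in an exact binomial test (two-sided), and p-values were adjusted over all of them by Benjamini-Hochberg. A gene that passed differed by more than counting error. The test compares these 2 libraries and no condition, and at this depth small differences pass. Of all genes tested, 50.8% passed, 26.3% lower and 24.5% higher in library 2, and 5.71% also differed over 2-fold on the log2 scale. Among the 8811 genes with 1000 or more counts the test passed 69.1%, with 40.6% lower in library 2, and 1.25% passed with a difference over 2-fold. All 9 members passed the count filter, the lowest with 1077 counts. All 9 passed the test, 8 lower and 1 higher in library 2, and 2 of them, Igfbp2 and Igfbp7, were over 2-fold. Their median log2 ratio of library 2 over library 1 was -0.32, against 0.01 over all genes tested and -0.04 over genes with 1000 or more counts. Since most genes of such depth passed, passing says little about the members, and the sizes of the differences follow.

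All 6 binding protein genes were lower in library 2, with a median log2 ratio of -0.55. Igfbp2 had 1081 counts in library 1 and 393 in library 2, a scaled ratio of library 1 over library 2 of 2.78 (95% counting interval 2.47 to 3.13), and 9 of 8576 protein-coding genes with 1000 or more counts had a lower log2 ratio. Igfbp7 had 263929 and 122460 counts, a ratio of 2.18 (2.16 to 2.19), and 25 of those genes lay lower. Igfbp6 had 817 and 472 counts, a ratio of 1.75 (1.56 to 1.96), and 103 genes lay lower. These 3 genes lay outside the 5th to 95th percentile of genes with 1000 or more counts, which ran from -0.54 to 0.43.

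The remaining binding proteins differed less. Igfbp3 had 11918 and 9752 counts (log2 ratio -0.30), Igfbp4 35877 and 31857 (-0.19), and Igfbp5 2678 and 2415 (-0.16). Igfbp5 had an adjusted p of 1.72e-04 by the exact binomial test. Genes encoding proteins of the same family and abundant in the same organ thus did not differ by a common amount: Igfbp7 stood at 21.0 times Igfbp4 in library 1 and at 10.6 times in library 2.

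Both receptor genes were lower in library 2. Igf2r had 3562 and 2707 counts (log2 ratio -0.41) and Igf1r 596 and 481 counts (-0.32), the latter with the largest adjusted p among the members, 7.64e-04 by the exact binomial test. Igf1 was the single member higher in library 2, with 1160 and 1557 counts, a ratio of library 2 over library 1 of 1.33 (95% counting interval 1.23 to 1.43) and an adjusted p of 1.35e-12 by the same exact binomial test. On the TPM scale the log2 ratio of Igf1 was 0.04 against 0.41 from counts. Its effective length was 492 nucleotides in library 1 and 585 in library 2, and TPM scaling also lowered genes of stable length, such as Igfbp5, whose log2 ratio was -0.28 from TPM and -0.16 from counts. The Igf1 difference was thus present in counts and nearly absent in TPM.

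Base composition was read beside the ratios. GC content and length were those of the longest GENCODE M21 transcript of each gene. For Igf1 this was Igf1-202, which held 1.02% and 1.77% of TPM in libraries 1 and 2. For Igf1r it was longer than the 4489-nucleotide model that was quantified. Igfbp2 (62.1% G and C), Igfbp6 (60.7%) and Igfbp7 (58.8%) were the richest in G and C of the members, and Igf1 (38.0%) was the poorest. The other 5 showed no such order: Igfbp4 (55.1%) had a log2 ratio of -0.19, Igf2r (51.2%) of -0.41 and Igf1r (49.4%) of -0.32. With the trend over all genes in GC content and length removed, an alternative added after the data were seen, the log2 ratio was -1.23 for Igfbp2, -0.97 for Igfbp7, -0.61 for Igfbp6, 0.19 for Igf1 and -0.37 for Igf1r, which moved away from 0. Every member kept its direction, and Igfbp7 no longer exceeded 2-fold.

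**Figure D3:**
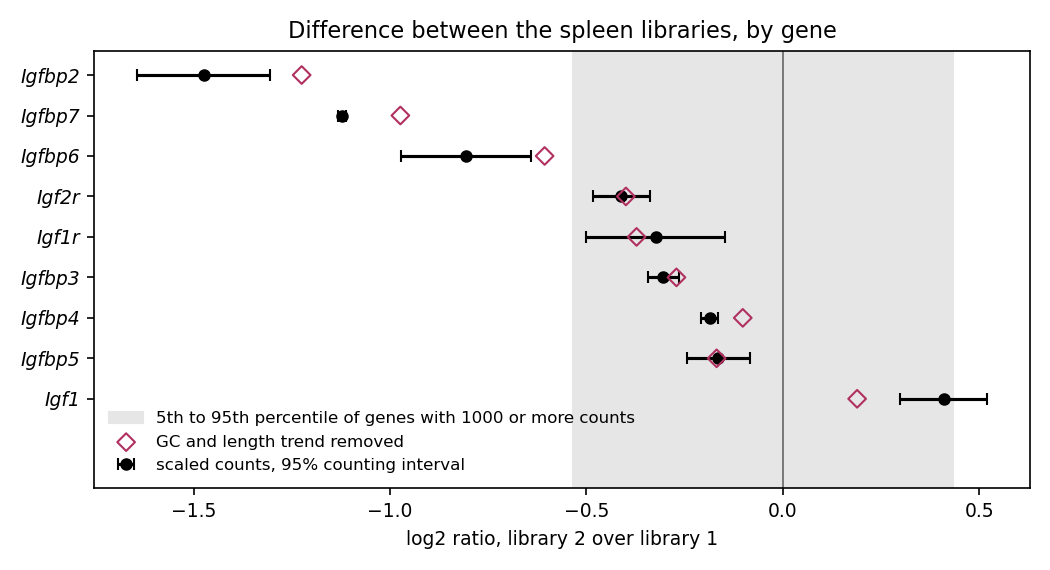
Log2 ratio of library 2 over library 1 for each of the 9 genes. Black points are scaled counts with 95% counting intervals, which hold no spread between animals; open diamonds have the GC and length trend removed; the grey band spans the 5th to 95th percentile of genes with 1000 or more counts. The band is of ratios before that trend was removed, so it is no matched range for the diamonds. By scaled counts Igfbp2, Igfbp7 and Igfbp6 lie left of the band. Igf1 is the only gene right of 0 by both measures.

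Markers of the cells that could hold these transcripts were read beside the ratios. Lower and higher here mean past the exact binomial test. Of all genes tested, 26.3% were lower and 24.5% higher in library 2, and 69.1% of genes with 1000 or more counts passed. All 5 mesothelium genes were lower in library 2, with a median log2 ratio of -0.61 and a summed level of 47.0 TPM in library 1 and 28.0 TPM in library 2, and none of them was at 0. The largest, Wt1, had 26.7 and 15.8 TPM. Of 5 smooth muscle genes 4 were lower (371.6 and 300.5 TPM summed, median -0.21). Of 8 endothelial genes 6 were higher and 1, Plvap, was lower (751 and 682 TPM summed, median log2 ratio 0.24). Plvap alone made up 488 and 378 TPM of those sums. Of 8 reticular stroma genes 5 were higher and 1, Ccl21a, was lower (886 and 812 TPM summed, median 0.13). Ccl21a made up 306 and 253 TPM of those sums, and Ccl19, which did not pass, made up 464 and 423 TPM. Acinar genes were higher in 6 of 7 cases, with a median of 0.18, although their summed level was lower. Red pulp macrophage genes were higher in 8 of 9 cases (1191 and 1377 TPM summed, median 0.64), the direction of Igf1. So were 4 of 5 adipose genes, by a larger median of 1.11 (48.6 and 105 TPM summed). Islet genes, of which 3 of 5 had the counts to be tested, were lower in 2 cases (33.3 and 18.0 TPM summed, median -0.60), the direction of the binding proteins. Of 4 tested liver genes 1, Serpina1a, was lower (10.7 and 0.58 TPM), and all 3 tested kidney tubule genes were higher, at summed levels of 0.44 and 2.15 TPM. The part of these cell types in the differences of the members was not tested.

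Several genes share ground with members on the opposite strand. Polr2b, which overlaps Igfbp7, had 1148 and 1335 counts against 263929 and 122460. Airn, the long noncoding RNA that overlaps Igf2r and represses its paternal allele, had 115 and 134 counts against 3562 and 2707, and Igf1os, opposite Igf1, had 0 in both libraries. The libraries are stranded, but no source used here gives the strand setting of the counting.

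By the likeness of their difference, 5 genes came nearest to Igfbp7 among 877 protein-coding genes with a mean of 100 TPM or more. They were Cebpb, a transcription factor gene (log2 ratio -1.10, 145 and 61.7 TPM), Usp1, which encodes a deubiquitinase (-1.10), the histone H3 gene Hist2h3c2 (-1.08), Sycn, a gene of acinar zymogen granules (-1.07, 7591 and 3187 TPM), and H2afx, a histone variant gene (-1.01). The measure was the distance of log2 ratios over 2 libraries, and Igfbp7, at -1.12, was lower than all 5.

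A list of 38 further genes of the pathway gave the surroundings of the members. Of these, 25 reached 1 TPM in both libraries and 34 had the counts to be tested. By the exact binomial test 13 were lower in library 2, 3 were higher and 18 did not pass. That is 47.1% called, near the 50.8% of all genes tested. None exceeded 2-fold among those called, and the median log2 ratio was -0.14 against 0.01 over all genes. With the GC and length trend removed, all 16 genes called kept their direction, but much of the difference went for Akt1 (log2 ratio -0.27, then -0.08), Sh2b1 (-0.25, then -0.06) and Kazald1 (-0.21, then -0.04).

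The ligand gene Igf2 had 672 and 653 counts, and the difference did not pass (log2 ratio -0.06, adjusted p = 0.60 by the exact binomial test). Among further binding partners, Kazald1, a relative of the binding proteins, had 73.4 and 57.6 TPM and was lower in library 2 (-0.21). Igfals, which encodes the acid-labile subunit of the serum complex and is made mainly in liver, had 1.42 and 0.89 TPM and was also lower (-0.54). Igfbp3 stood at 94.8 and 109.9 times Igfals. Igfbp1, a binding protein gene of liver, had 1 count in library 1 and 0 in library 2, where 0 counts allow up to 3, and Igfbpl1 had 5 and 1 counts.

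Of 6 genes for proteases that cut binding proteins and for their inhibitors, 1 passed the test. Htra1, a secreted serine protease gene, had 43.0 and 34.1 TPM (log2 ratio -0.30). Stc2, which encodes an inhibitor of pappalysins, had 2.95 and 3.04 TPM, and Adam12 had 0.64 and 0.48 TPM. The pappalysin genes Pappa and Pappa2 had 0.22 and 0.20 TPM and 0.11 and 0.07 TPM. Igfbp4, whose product pappalysin cleaves, thus stood at 262 TPM beside pappalysin genes below 1 TPM.

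Among receptors, Insr had 8.52 and 6.30 TPM but 1628 and 1717 counts, and its count difference did not pass (log2 ratio 0.06). Insrr, the gene of the related orphan receptor, had 0.38 and 0.22 TPM and was lower (-0.64). Among 8 adaptors, 3 were lower, 1 was higher and 3 did not pass. Grb2 had 67.1 and 67.2 TPM (0.13) and was the adaptor that was higher. Sh2b1 had 49.1 and 37.9 TPM and was lower (-0.25), and Shc1 (49.5 and 44.2 TPM) did not pass. Irs4, an insulin receptor substrate gene, had 0 counts in both libraries.

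The kinases and their targets below the receptor were all above 1 TPM, 9 of 9 in both libraries, with 4 lower, 2 higher and 3 not passing. Akt1, the most abundant, had 123 and 94.2 TPM and was lower (log2 ratio -0.27). Akt2 had 43.6 and 43.7 TPM and did not pass, and Foxo3, a transcription factor gene restrained by this cascade, had 44.4 and 38.8 TPM and was higher from counts (0.09). In the growth hormone input to Igf1 transcription, Stat5b had 40.7 and 29.8 TPM (-0.31) and Stat5a 32.3 and 22.3 TPM (-0.30), both lower, whereas Socs2, a feedback inhibitor gene, had 11.6 and 9.26 TPM and did not pass. Of the 5 genes in this role 2 were lower and 3 did not pass. Igf1 counts were higher in library 2, and a link to the Stat5 genes was not tested. The 3 genes for proteins that bind Igf2 mRNA were below 1 TPM: Igf2bp2 had 0.57 and 0.24 TPM, Igf2bp3 0.12 and 0.08 TPM, and Igf2bp1 3 and 1 counts.

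**Figure D4:**
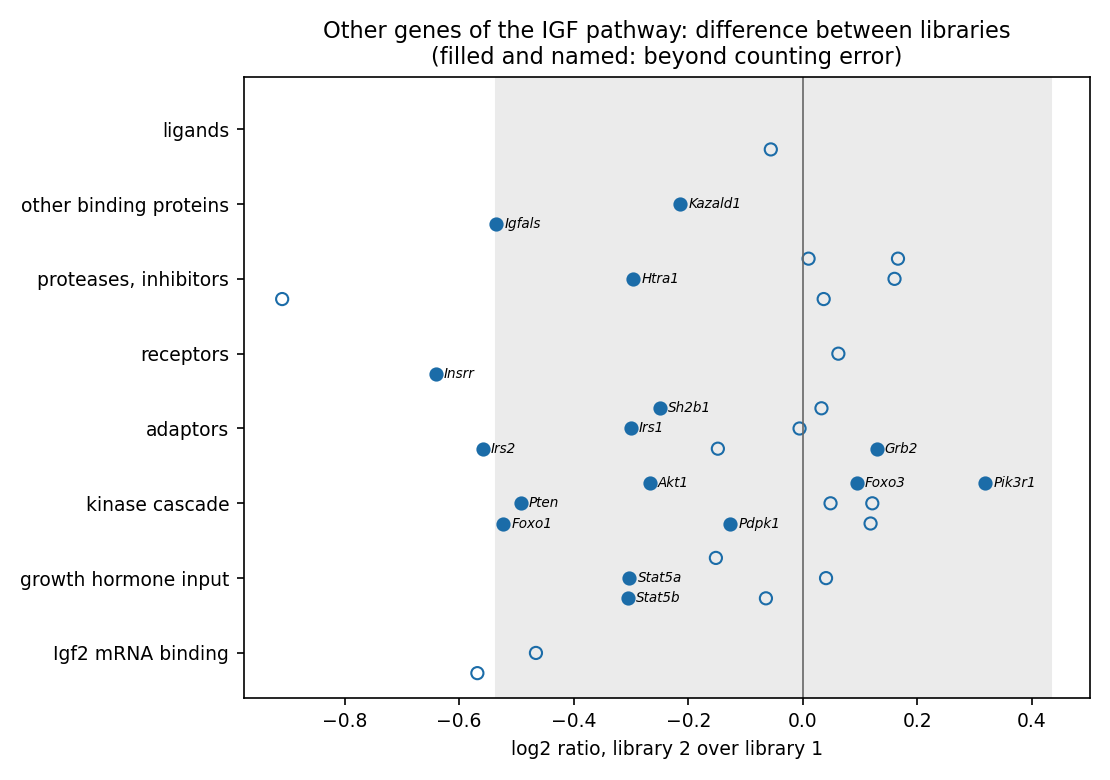
Log2 ratio of library 2 over library 1 for the 34 tested genes of the pathway list, in rows by role. Filled, named points passed the exact binomial test, open points did not, and the grey band spans the 5th to 95th percentile of genes with 1000 or more counts; vertical offsets within a row only separate points. The 16 genes that passed lie between -0.64 (Insrr) and 0.32 (Pik3r1).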

How the data were processed

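The authors deposited gene and transcript tables for each of the 2 libraries with expected counts, TPM, posterior mean TPM (treated as a score), FPKM and the percent of each gene held by a transcript. Per the deposited notes these were quantified against mm10 and GENCODE M4. No source used here names the aligner, the quantifier or its strand setting. Symbols and positions came from GENCODE M21 on GRCm38, matched by unversioned identifier for 42462 of 43346 genes (98.0%).

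TPM was used as deposited, and means are over 2 libraries with SD. Expected counts were rounded. TMM factors (edgeR 4.0.16 under R 4.3.3) from genes with 10 or more counts in total were 1.01 and 0.988. Log2 ratios used a prior count of 2, and folds used none. Intervals are exact (Clopper-Pearson, 95%) and cover counting error only. The exact binomial test (scipy 1.17.1) used an adjusted p threshold of 0.05. It was first tested on simulated counts that held counting error only, which says nothing about spread between animals. With 2 libraries in 1 group no test between groups exists.

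The pathway genes named are the 3 of highest mean TPM in each role, those with 0 counts and any called over 2-fold; Pappa, Pappa2 and, as ends of a range, Pik3r1 were named after their values were seen. Members and lists were chosen with earlier results of these data known. Junction and contig lists on mm9 were not used.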

Additional observations from a re-analysis of the deposited data

How the results depend on the processing

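Of 176 alternative values, 0 reversed or changed a call. For 154 a tested ratio kept its direction and call, a level or share stayed within 1 SD of the libraries, a ratio with no test stayed within its counting interval, or a count stayed within 1.5 times. The other 22 moved by more. The 54 values of a level and the 27 of a transcript share had no call to change. Neither had the members' ratios taken from TPM or with the GC and length trend removed. With 2 libraries, leaving out either always keeps a level or share within 1 SD of the mean. Those alternatives could not count as moved and say nothing about stability. The counts of members and pathway genes called were identical under DESeq2 1.42.0 size factors, no scaling factor, other count minimums and posterior mean counts. These tests were limited to counting error. The count of all genes called ran from 8552 to 8916. Removing the GC and length trend moved 5 of the 9 members' log2 ratios, and TPM ratios moved Igfbp3, Igfbp4, Igfbp5, Igfbp7 and Igf1. The Igfbp7 share of binding protein TPM was 87.5% without library 1 and 92.8% without library 2, which are the values of the remaining library. TPM without haemoglobin, acinar genes and Gm42418 raised the level of all 9 members, among them Igfbp7 to 6344 TPM, Igfbp4 to 399 TPM and Igf1 to 76.2 TPM. No paired analysis was possible because there is a single group.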
